A study of Mus musculus with 21 samples.

Results

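The ribosome-bound RNA of the Emx1 lineage was compared with that of the whole forebrain in mouse embryos at embryonic day 14.5. The comparison used 6 of the 21 samples of the series, chosen by the sample labels alone: the 3 translatome samples of the Emx1 lineage and the 3 translatome samples of the forebrain. All 6 came from translating ribosome affinity purification (TRAP), in which RNA is recovered with a tagged ribosomal protein. Every embryo carried 1 copy of the allele Gt(ROSA)26Sor-mCherry-Rpl10a+/-, which makes Rpl10a, a protein of the large ribosomal subunit, fused to the red fluorescent protein mCherry once Cre recombinase has acted. In the Emx1 group the genotype was Emx1Cre+/-;Gt(ROSA)26Sor-mCherry-Rpl10a+/-, so the tag was made in cells that express Emx1 or descend from such cells. In the forebrain group the driver was Sox2Cre+/-, which acts in the epiblast, so all cells of the embryo proper were open to the tag. Total forebrain RNA, used below for levels, came from the same Sox2Cre genotype. Brain endothelial TRAP samples, also used for levels, came from Cdh5CreERT2+/-;Gt(ROSA)26Sor-mCherry-Rpl10a+/- embryos after oral gavage of tamoxifen. The allele derived from 1 targeted embryonic stem cell clone, the dissected tissue was the forebrain with part of the diencephalon, and a sample pooled the tissue of a pair of embryos. The embryos of both groups were different animals, and the 2 groups were sequenced in different runs, so group and run cannot be told apart.

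Emx1 is a homeobox gene of the pallium, the dorsal part of the telencephalon that forms the cerebral cortex and hippocampus. Radial glia of the pallium make excitatory, glutamatergic neurons, most often through intermediate progenitors that express Eomes. The inhibitory, GABAergic neurons of the cortex arise in the ventral telencephalon, in the ganglionic eminences, and migrate into the cortex from there. Blood vessels, pericytes, meninges and microglia of the forebrain have yet other origins, in mesoderm, neural crest or yolk sac. A comparison of the Emx1 lineage with the whole forebrain therefore asks which ribosome-bound RNAs belong to the dorsal lineage and which to the other cells of the dissected tissue. In such bulk samples, fewer cells of a type and less RNA per cell cannot be told apart. The paper names background RNA from the tissue as a key concern of such profiling. Its part in the levels below was not measured, so a level in the Emx1 samples need not be expression in that lineage.

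The counted reads came to between 31682609 and 79231692 per library in the Emx1 lineage and between 30546034 and 45773518 in the forebrain. Across genes, the log2(RPKM + 1) values of the libraries had a Pearson r of at least 0.9986 among the Emx1 samples and at least 0.9975 among the forebrain samples, against at most 0.9873 between the groups. RPKM is the read number divided by transcript length and library size, and it is the level given below. Genes of the Y chromosome were near 0 in forebrain library 1 (Ddx3y at 0.0236 RPKM) and at 9.16 and 8.42 RPKM in the others, and they were lower in Emx1 library 1 (4.22 RPKM) than in libraries 2 and 3 (9.35 and 9.71 RPKM), so the pools were not alike in Y-linked RNA.

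Ribosome-bound RNA differed between the Emx1 lineage and the forebrain in both directions, but the decreases reached much further than the increases. The forebrain reference contains the Emx1 lineage itself, so the share of that lineage in the tissue limits an increase. No such limit holds for a decrease. The paper predicts such a ceiling for abundant cell types. The unequal reach was thus given in part by the design, and whether more lay behind it was not tested. Of 19006 gene rows tested with the quasi-likelihood test of edgeR, 1749 (9.2%) were higher and 2442 (12.8%) were lower in the Emx1 lineage at a Benjamini-Hochberg adjusted p below 0.001. The median log2 fold change, Emx1 lineage over forebrain, was 0.40 among the higher rows and −1.20 among the lower rows, and 0.00 over all rows. Among the higher rows, 101 exceeded a 2-fold change and 23 a 4-fold change, compared with 1379 and 723 of the lower rows. Most of these rows had low levels. With a mean of at least 5 RPKM in either group, the numbers were 49 and 5 against 348 and 157. The 5 were Rpl29, Rps18, Hmgn2, AA465934 and Dynlt1a, whose limits are given below. The higher rows made up 41.7% of all calls, and 29.9% when libraries were scaled by total counts alone. The number of higher rows rested on every library to some degree: it was 1138 without Emx1 library 1 and 1110 without Emx1 library 2, and the lower rows came to between 2007 and 2198 when any 1 library was left out.

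**Figure D1:**
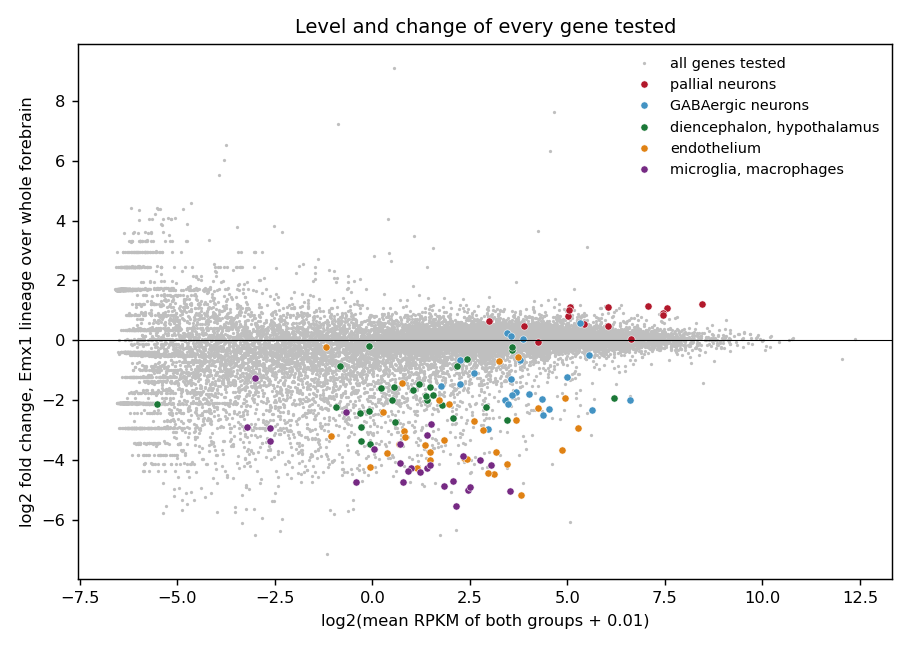
Each grey point is a gene tested, placed by log2(mean RPKM of both groups + 0.01) on the horizontal axis and by the log2 fold change of the Emx1 lineage over the forebrain on the vertical axis, with members of 5 gene lists in colour. Pallial neuron genes lie up to 1.21 above the line of no change, whereas GABAergic genes reach −2.96, endothelial genes −5.18 and microglial genes −5.53.

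The defining genes of the dorsal lineage were each about 2 times as high in the Emx1 samples. Because the forebrain reference holds the same lineage, the size of these increases does not measure how specific the genes are to it. Emx1 (NM_010131, GRCm38 chromosome 6, 85187931 to 85204463) had 91.6, 102 and 93.3 RPKM in the Emx1 lineage and 53.4, 47.4 and 52.8 RPKM in the forebrain. All 3 Emx1 samples were above all 3 forebrain samples, and the log2 fold change was 0.96 (SE 0.06, adjusted p = 5.1e-09). Neurod6 (NM_009717, chromosome 6, 55677818 to 55681263), a transcription factor of young pallial neurons, had 486, 452 and 511 RPKM against 207, 220 and 223 RPKM. It was the gene of the pallial neuron list with the largest change, at 1.21 (SE 0.05, adjusted p = 1.9e-10). Tbr1 (NM_009322, chromosome 2, 61802863 to 61814114), a T-box factor of early-born deep-layer neurons, had 186, 179 and 183 RPKM against 83.9, 92.3 and 83.2 RPKM, with a log2 fold change of 1.13 (SE 0.05, adjusted p = 1.3e-10). In brain endothelial TRAP samples of the same series, shown as a level only, the means of the 3 genes were 10.1, 22.5 and 24.0 RPKM, below both groups. Rpl10a, the gene from which the tag was made, stood at 6.28 to 7.14 RPKM in the Emx1 lineage and at 5.89 to 7.64 RPKM in the forebrain (log2 fold change 0.06, adjusted p = 0.72), and reads of its many genomic copies may have been split.

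**Figure D2:**
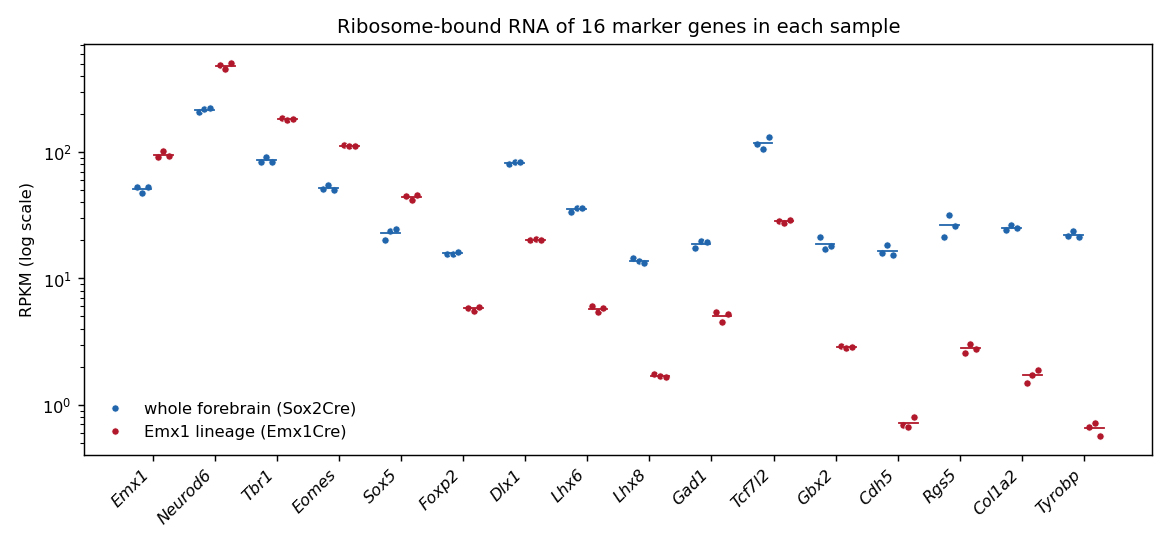
Points are the RPKM values of single samples on a log scale, with the forebrain in blue and the Emx1 lineage in red, and short lines are the means of 3 samples. Emx1, Neurod6, Tbr1, Eomes and Sox5 are higher in all 3 Emx1 samples, and the other 11 genes are lower in all 3.

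The gene lists used here and below were chosen with earlier results of these data known, so their counts and medians are descriptions. Of 17 patterning and progenitor factors of the pallium, 14 rose, 2 fell and 1 did not pass the test, with a median log2 fold change of 0.73. Eomes (also called Tbr2), the T-box factor of intermediate progenitors, had 114, 111 and 113 RPKM in the Emx1 lineage against 51.3, 55.0 and 50.5 RPKM in the forebrain, and changed most (1.16, SE 0.05). Tfap2c rose by 1.05 and Fezf2, which directs deep-layer fates, by 1.01. Neurog2 and Neurog1, the proneural bHLH factors that drive glutamatergic neurogenesis, rose by 0.73 and 0.71. Of the patterning factors, Lhx2, which specifies cortical identity, had a log2 fold change of 0.79, Emx2 of 0.68, Gli3 of 0.65 and Pax6 of 0.52. Pax6 had 53.2, 55.5 and 52.6 RPKM against 42.0, 36.5 and 37.3 RPKM, so its increase was the smallest of the 14 although the groups did not overlap.

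2 members of that list went the other way. Fezf1, which is also expressed in the hypothalamus, had 4.49, 4.41 and 4.36 RPKM in the Emx1 lineage and 9.75, 10.7 and 11.1 RPKM in the forebrain (log2 fold change −1.19, SE 0.07, adjusted p = 6.4e-09). Lhx9, which is also expressed in the thalamus, had 14.8, 14.7 and 14.9 RPKM against 21.9, 21.5 and 21.1 RPKM (−0.54, SE 0.05, adjusted p = 3.7e-07), a call lost in 1 fit of 12 brain libraries. Nr2f1, a regulator of cortical areas, did not pass the test, with 130 to 134 RPKM against 123 to 133 RPKM.

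Of 15 genes of pallial glutamatergic neurons, 13 rose, none fell and 2 did not pass the test, with a median log2 fold change of 0.84. Of the bHLH genes on this list, Neurod1 rose by 1.12, Neurod2 by 1.08 and Bhlhe22 by 1.11. Nhlh1, also a bHLH gene, rose less (0.55, SE 0.09). Its call was lost in 1 fit of 12 brain libraries and with at least 10 counts in 3 samples. Neurod2 had 251, 241 and 259 RPKM against 120, 123 and 124 RPKM. Prdm8 rose by 1.01 and Zfp238 (now Zbtb18), a repressor needed for cortical neuron differentiation, by 0.91. The vesicular glutamate transporters differed from each other. Slc17a7 (VGLUT1), the transporter of cortical excitatory neurons, had 40.6, 39.6 and 41.0 RPKM against 25.6, 23.8 and 22.5 RPKM and rose by 0.81 (SE 0.05). Slc17a6 (VGLUT2), which is typical of diencephalic excitatory neurons, had 18.9, 17.6 and 18.2 RPKM against 20.6, 18.8 and 20.0 RPKM, and the groups overlapped (−0.06, SE 0.05, adjusted p = 0.34). The difference between the transporters was not tested. Lmo4 was the other member that did not pass the test (0.06, adjusted p = 0.33).

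Cortical layer genes had mixed directions, with 10 of 20 higher, 2 lower, 8 not past the test and a median log2 fold change of 0.41. Sox5, which controls the sequence of deep-layer neurons, had 44.7, 42.1 and 45.9 RPKM in the Emx1 lineage against 20.2, 23.9 and 24.4 RPKM in the forebrain (1.01, SE 0.07). Zfpm2 rose by 0.78 and Nfib by 0.77. Bcl11b (CTIP2), shared by subcerebral projection neurons and striatal neurons, had 65.7, 60.0 and 62.9 RPKM against 46.8, 53.2 and 51.6 RPKM and had the smallest increase (0.37). Foxp2, which marks layer 6 and is also strong in striatum and thalamus, had 5.84, 5.56 and 5.99 RPKM against 15.6, 15.5 and 16.3 RPKM, a fall to 36.7% of the forebrain level (−1.37, SE 0.05, adjusted p = 2.2e-11). Cux1 fell by 0.33 (SE 0.04), with 40.7 to 40.8 RPKM against 52.5 to 54.4 RPKM. Its upper-layer partner Cux2 (0.03), Tle4 (0.03), Etv1 (−0.07), Rorb (0.19) and the POU factors Pou3f1 (0.20) and Pou3f2 (0.11) did not pass the test.

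Genes of the ventral telencephalon were lower in the Emx1 samples, where their RNA was still detected. Whether that rest was background RNA of the tissue was not tested. Of 18 progenitor factors of the ganglionic eminences and ventral midline, 14 fell, none rose and 4 did not pass the test, with a median log2 fold change of −1.52. Nkx2-1, which specifies the medial ganglionic eminence, had 5.62, 5.98 and 5.29 RPKM in the Emx1 lineage and 26.4, 29.2 and 31.4 RPKM in the forebrain (−2.32, SE 0.08). The zinc finger factor Sp9 had the largest decrease of the list (−2.39, SE 0.06), with 4.64 to 5.01 RPKM against 25.6 to 27.3 RPKM. Dlx1 (NM_010053, chromosome 2, 71528113 to 71533981), a homeobox factor that promotes the GABAergic fate, had 20.0, 20.7 and 20.2 RPKM against 81.2, 83.3 and 83.2 RPKM, and Dlx2 fell by a similar amount (−1.97 and −1.92). The level of Dlx1 in the Emx1 lineage was thus 24.6% of the forebrain level. The 2 factors of the lateral ganglionic eminence differed in size, with Gsx1 at −2.36 and Gsx2 at −1.04.

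Among 23 genes of GABAergic neurons, 19 fell, 1 rose and 3 did not pass the test, with a median log2 fold change of −1.53. Lhx8 (NM_010713, chromosome 3, 154306288 to 154330560), which marks cholinergic and other neurons of the medial ganglionic eminence, had 1.75, 1.69 and 1.67 RPKM in the Emx1 lineage and 14.4, 13.8 and 13.3 RPKM in the forebrain. It was the lowest of the list at 12.3% of the forebrain level (−2.96, SE 0.08, adjusted p = 9.5e-13). Lhx6, its relative in migrating cortical interneurons, had 6.05, 5.40 and 5.86 RPKM against 33.5, 36.4 and 36.1 RPKM, or 16.3% of the forebrain level (−2.49, SE 0.06). Genes of GABA synthesis and release fell alike: Gad1 by 1.83, Gad2 by 2.01 and the vesicular transporter Slc32a1 by 2.15. The peptide gene Sst had 37.7, 33.2 and 42.0 RPKM against 142, 161 and 165 RPKM (−1.99), and Npy fell by 1.79. Dlx1as and Dlx6as1 lie opposite Dlx1 and Dlx6, and the libraries did not keep strand, so reads of those partners cannot be told apart. Their log2 fold changes were −2.33 and −1.97.

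Zeb2 was the exception in this list. The gene acts in both interneurons and cortical projection neurons, had 48.4, 44.3 and 48.1 RPKM in the Emx1 lineage against 30.2, 34.6 and 33.1 RPKM, and rose by 0.58 (SE 0.06, adjusted p = 9.3e-07). Cxcr4 (0.03) and Sox6 (0.14) did not pass the test, while Nr2f2 (−0.49), Sp8 (−0.65) and Cxcr7 (−0.66) had the smallest decreases. The values of Cxcr4, a chemokine receptor of migrating interneurons, were 13.9 to 15.0 RPKM against 12.8 to 16.4 RPKM, with a mean of 47.3 RPKM in brain endothelial TRAP samples.

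Striatal projection neuron genes fell in 15 of 22 cases, with 1 rise, 6 not past the test and a median log2 fold change of −1.01. Rxrg and Rarb, retinoid receptors of the striatum, fell by 2.66 and 1.80. Isl1, which directs the direct-pathway fate, had a log2 fold change of −2.17 and Adora2a of −2.06. Isl1 had 5.99, 4.64 and 5.48 RPKM in the Emx1 lineage against 24.9, 26.4 and 25.0 RPKM in the forebrain. Ppp1r1b (DARPP-32), an integrator of dopamine signals that is also made by deep cortical neurons, had 35.2, 37.0 and 36.5 RPKM against 16.8, 18.9 and 20.2 RPKM and rose by 1.02 (SE 0.07, adjusted p = 1.4e-08). The dopamine receptors differed in sign, Drd2 with a log2 fold change of −1.21 (adjusted p = 8.5e-06) and Drd1a with 0.59, which did not pass the test (adjusted p = 0.0018). Drd1a had 1.38 to 1.78 RPKM against 0.937 to 1.13 RPKM. Meis2 (0.22) and Zfp521 (0.12) did not pass the test.

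Factors of the thalamus, hypothalamus and prethalamus were mostly lower in the Emx1 lineage. Of 28 tested, 22 fell, none rose and 6 did not pass the test, and the median log2 fold change was −1.96. Tcf7l2, the Wnt effector of the thalamus, had 28.5, 27.6 and 29.1 RPKM in the Emx1 lineage against 115, 105 and 131 RPKM in the forebrain (−1.93, SE 0.07). Gbx2 (chromosome 1, 89927962 to 89931176), which specifies thalamic neurons, had 2.93, 2.82 and 2.86 RPKM against 21.1, 17.1 and 18.2 RPKM, or 15.2% of the forebrain level (−2.66, SE 0.08). The hypothalamic homeobox gene Hmx2 fell most (−3.47, SE 0.22), from 1.55 to 1.92 RPKM down to 0.121 to 0.204 RPKM, with as few as 7 reads in an Emx1 library. Otp, needed for neuroendocrine neurons, fell by 2.22 and Sim1 by 2.37. The peptide gene Pomc fell by 0.86 with an adjusted p of 0.00055, a call that was lost when Emx1 library 2 or 3, or forebrain library 2 or 3, was left out.

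Several of these genes varied among the forebrain samples, whose share of diencephalon was not measured. Six6, a hypothalamic and eye-field gene, was at 0.127 RPKM in forebrain library 1 and at 1.25 and 1.20 RPKM in libraries 2 and 3, and it did not pass the test (−2.22, SE 0.56, adjusted p = 0.0044). Rax, of the same territory, showed the same low value in library 1 (0.367 RPKM against 0.902 and 0.892 RPKM). Barhl1 was instead lowest in forebrain library 2, at 1.22 RPKM, with 2.64 to 2.91 RPKM in the others. All 5 Zic genes, zinc finger factors of the dorsal midline, septum and meninges, fell, by 0.73 for Zic2 to 1.39 for Zic4. Zic1 had 50.7, 51.8 and 49.0 RPKM in the Emx1 lineage against 113, 112 and 104 RPKM.

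**Figure D3:**
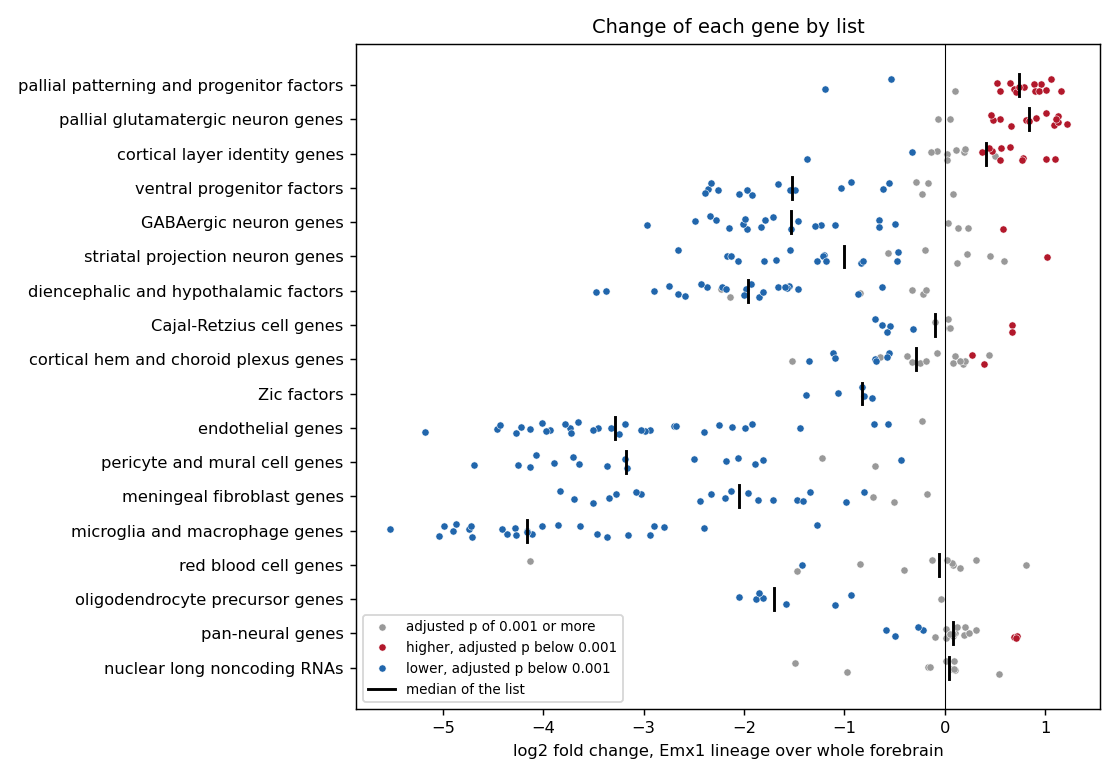
Each point is a gene, placed by its log2 fold change of the Emx1 lineage over the forebrain, with red and blue for genes that passed the test and grey for the rest, and the black bar is the median of the list. The 2 pallial lists have medians of 0.73 and 0.84, the ventral, GABAergic and diencephalic lists between −1.96 and −1.52, and the endothelial, mural and microglial lists between −4.16 and −3.18.

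Cajal-Retzius cells, early neurons of the cortical surface that arise at several borders of the pallium, had no common direction. Of 11 genes, 2 (18.2%) rose, 5 (45.5%) fell and 4 did not pass the test, with a median of −0.09. Over all rows, 9.2% were higher and 12.8% lower. Reln, the secreted guide of neuronal layering, had 56.9, 53.2 and 53.9 RPKM in the Emx1 lineage against 33.4, 36.8 and 36.5 RPKM and rose by 0.67, as did Trp73 (0.67). Reln was also high in brain endothelial TRAP samples, at a mean of 176 RPKM. Lhx5 fell by 0.69, Lhx1 by 0.62, Car10 by 0.58 and Ebf3 by 0.55, the call of Ebf3 being lost in 1 fit of 12 brain libraries. Calb2 had 25.9 to 27.3 RPKM against 26.5 to 27.5 RPKM, and Nhlh2 25.9 to 27.7 RPKM against 27.1 to 27.6 RPKM, so neither differed beyond the spread.

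Genes of the cortical hem and choroid plexus, structures at the dorsal midline, fell in 7 of 22 cases (31.8%) and rose in 2 (9.09%), with a median of −0.29. Of all rows, 12.8% were lower and 9.2% higher, so the rises were near the share of all rows. The hem ligand Wnt8b and the Wnt enhancer Rspo3 had log2 fold changes of 0.39 and 0.27, with adjusted p of 0.00095 and 0.00039. Both calls depended on single libraries: that of Wnt8b was lost with any library left out, and that of Rspo3 with any but forebrain library 3. The bone morphogenetic proteins Bmp4, Bmp6 and Bmp7 fell by 1.35, 1.11 and 1.09. Ttr, the thyroid hormone carrier that choroid plexus epithelium makes in large amounts, had 365, 323 and 291 RPKM in the Emx1 lineage against 497, 616 and 527 RPKM (−0.69, SE 0.08). Some other genes of that epithelium did not pass the test, among them Folr1 (−0.08), Kcne2 (0.15) and Foxj1 (−0.19). Otx2 and Aqp1 were among the 7 that fell, and both calls were lost in some of the alternative fits.

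Oligodendrocyte precursor genes fell in 7 of 8 cases, with a median of −1.70. Pdgfra, the growth factor receptor of these cells and of some mesenchyme, had 0.815, 0.681 and 0.984 RPKM in the Emx1 lineage against 3.07, 3.49 and 3.14 RPKM (−1.88). Olig1 fell by 2.05 and Olig2 by 0.93. Genes shared by most neural cells had a median of 0.08 over 20 genes, of which 3 (15.0%) rose and 4 (20.0%) fell, beside 9.2% and 12.8% of all rows. Dcx had 180 to 195 RPKM against 166 to 196 RPKM, Map2 130 to 139 RPKM against 133 to 146 RPKM, and Nes 62.5 to 70.0 RPKM against 59.8 to 78.8 RPKM. The Notch target Hes1 rose by 0.71 and Sox3 by 0.69. The decreases of Tubb3 (−0.22) and Gap43 (−0.27) were small and were lost when most single libraries were left out. The nuclear long noncoding RNAs Malat1, Meg3 and Miat were at 1.46 to 4.56 RPKM in both groups, against means of 61.4, 267 and 242 RPKM in total RNA of the forebrain. Other members of the list were higher. All 10 summed to 107 to 118 RPKM in the Emx1 lineage and 124 to 137 RPKM in the forebrain, against 741 to 932 RPKM in total RNA. None of the 10 passed the edgeR test between the groups at an adjusted p below 0.001. At an unadjusted p below 0.05, 1 of the 10 was higher and 2 were lower, and DESeq2 called 0.

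By their medians, the lowest lists were those of cells outside the neural lineage. Of 32 endothelial genes, 31 fell, none rose, and the median log2 fold change was −3.29. Cdh5 (VE-cadherin, chromosome 8, 104101613 to 104144504), the adhesion protein of endothelial junctions, had 0.689, 0.664 and 0.805 RPKM in the Emx1 lineage and 16.0, 18.4 and 15.4 RPKM in the forebrain, against a mean of 370 RPKM in brain endothelial TRAP samples. The Emx1 level was 4.33% of the forebrain level (−4.47, SE 0.09, adjusted p = 1e-13). The sialomucin gene Cd34 (chromosome 1, 194938821 to 194961292) had 0.658, 0.841 and 0.717 RPKM against 26.3, 29.8 and 26.3 RPKM and fell most (−5.18, SE 0.09). Receptors of vascular growth factors followed, with Tie1 at −4.43, Flt4 at −4.22, Tek at −4.01, Flt1 at −3.46 and Kdr at −2.70. Among transporters of the blood-brain barrier, Slc2a1, the glucose transporter, fell by 1.92, Slco1c1 by 2.12, Abcg2 by 0.71 and Mfsd2a by 0.56. Mfsd2a had 10.3, 10.9 and 10.5 RPKM against 16.8, 17.2 and 14.6 RPKM, so most of its forebrain level was present in the Emx1 samples. Slco1a4 was below 0.54 RPKM in both groups and did not pass the test.

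Genes of pericytes and vascular smooth muscle fell in 16 of 18 cases, with a median of −3.18. Rgs5, a regulator of G protein signalling in pericytes, had 2.58, 3.01 and 2.79 RPKM in the Emx1 lineage against 21.5, 31.6 and 25.9 RPKM (−3.19, SE 0.12), and Foxs1 and Ndufa4l2 fell most (−4.69 and −4.25). Pdgfrb, the receptor by which pericytes are recruited, fell by 1.89 and Notch3, which radial glia also express, by 0.44, a call that was lost without forebrain library 1. The level of Pdgfrb in the Emx1 lineage was 1.68 to 1.78 RPKM, against 6.24 to 7.35 RPKM.

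Meningeal fibroblast genes fell in 19 of 22 cases, with a median of −2.05. Col1a2 (chromosome 6, 4505618 to 4541543), a chain of fibrillar collagen, had 1.50, 1.73 and 1.90 RPKM in the Emx1 lineage against 24.0, 26.7 and 24.9 RPKM, or 6.78% (−3.84, SE 0.08). The growth factor gene Igf2 fell by 2.44 and the chemokine Cxcl12 by 1.34. Col3a1 was the collagen that remained highest, at 17.5, 23.5 and 22.0 RPKM against 41.6, 38.8 and 33.6 RPKM (−0.81, SE 0.09). Crabp2 (−0.50) and Fbln1 (−0.18) did not pass the test.

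All 26 genes of microglia and macrophages fell, among them Runx1 (−1.28), whose call was lost in 4 of the 6 fits that left out a library, and their median of −4.16 was the lowest of the lists. Tyrobp, the signalling adaptor of microglial receptors, had 0.668, 0.724 and 0.567 RPKM in the Emx1 lineage and 21.7, 23.7 and 21.4 RPKM in the forebrain (−5.04, SE 0.14), with at least 13 reads in each Emx1 library. The complement genes C1qa and C1qc fell by 4.99 and 4.90, the growth factor receptor gene Csf1r by 4.28 and Cx3cr1 by 4.27. Lyz2, encoding lysozyme, was at 1.98% of the forebrain level and had as few as 5 reads in an Emx1 library. Red blood cell genes did not follow this pattern. Embryonic globin Hbb-y had 89.5, 206 and 82.5 RPKM in the Emx1 lineage and 174, 109 and 82.0 RPKM in the forebrain (0.07, SE 0.29, adjusted p = 0.86), and Hba-x 12.8 to 23.4 RPKM against 14.8 to 17.4 RPKM (0.09, adjusted p = 0.72). Of 12 red blood cell genes tested, 1 (8.33%), Epor, passed the test (−1.42), and not without forebrain library 1. Over all rows, 12.8% were lower. Hba-a1, Hba-a2 and Hbb-b1 were listed at 0 in all 6 libraries, and reads of near-identical globin copies may have been split or dropped.

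The level that remained in the Emx1 samples, background RNA of the tissue included, thus differed by class of gene. Taken over members of at least 1 RPKM in the forebrain, the median share of the forebrain level was 4.98% for microglia and macrophages, 9.31% for endothelium, 10.6% for mural cells and 21.8% for meningeal fibroblasts. It was 24.2% for diencephalic factors, 27.6% for oligodendrocyte precursors, 31.6% for ventral progenitors, 33.2% for GABAergic neurons, 41.9% for striatal neurons and 54.4% for Zic factors. The pallial lists were at 159.7% for progenitor factors and 172% for neurons, and all tested rows of that level at 99.5%. Within a class the shares ranged widely, from 12.3% to 144% among GABAergic genes and from 2.69% to 65.2% among endothelial genes. The order of neighbouring classes was not tested. In the 8 lists of ventral progenitor, diencephalic, Zic, endothelial, mural, meningeal, microglial and oligodendrocyte precursor genes, 0 genes were higher by edgeR, by DESeq2 or at an unadjusted p below 0.05 in edgeR. Because the lists were chosen with earlier results of these data known, this common direction is no independent support.

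The pallial neuron genes summed to 1857, 1775 and 1927 RPKM in the Emx1 lineage and to 983, 1033 and 1044 RPKM in the forebrain. GABAergic neuron genes summed to 277, 264 and 278 RPKM against 664, 704 and 698 RPKM. Microglial genes summed to 7.28, 7.10 and 8.26 RPKM against 145.3, 165 and 144.0 RPKM, with no overlap of the groups. Red blood cell genes overlapped, with 131, 232 and 112 RPKM against 248, 163 and 157 RPKM.

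**Figure D4:**
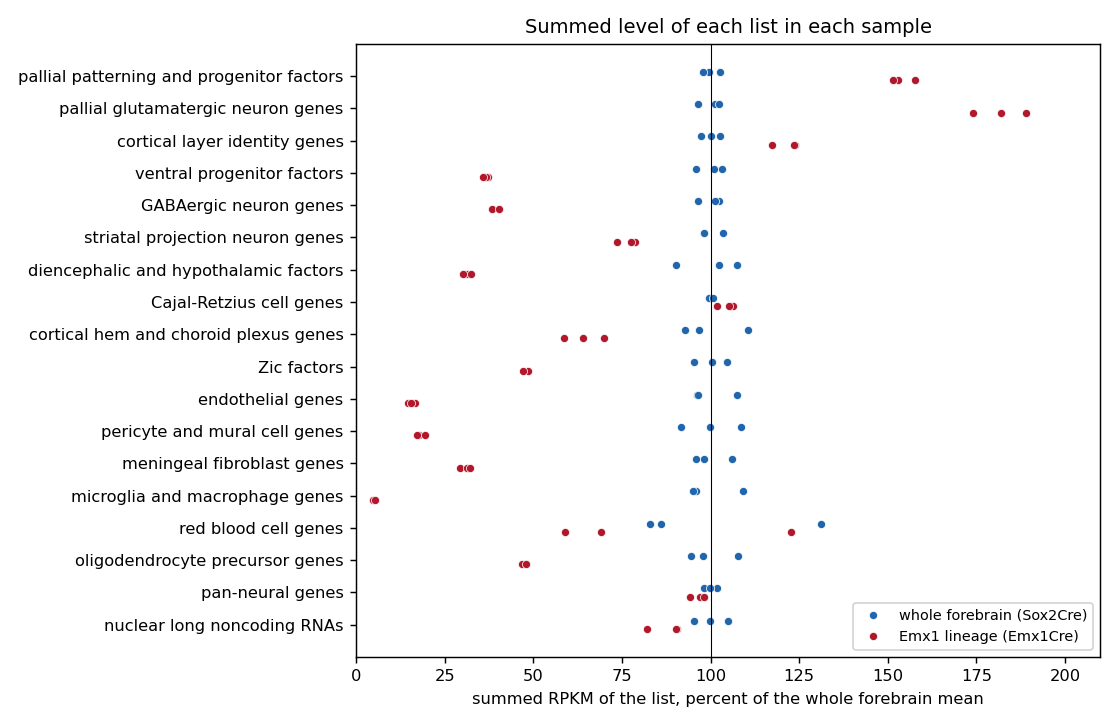
Points are single samples, placed by the summed RPKM of a gene list as a percentage of the mean of the 3 forebrain samples, with the forebrain in blue and the Emx1 lineage in red. Summed pallial neuron genes reach a mean of 182% in the Emx1 lineage, GABAergic genes 39.6%, endothelial genes 15.5% and microglial genes 4.98%, while pan-neural genes stay at 96.5%.

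Ranked by size without regard to any list, 15 genes per direction were taken among those of at least 5 RPKM that passed the test and whose samples did not overlap, a separation shown by 20.8% of all rows upward and 30.6% downward. The largest increase was that of Rpl29. This ribosomal protein gene, known to have numerous processed copies, had 57.1, 39.5 and 54.1 RPKM in the Emx1 lineage and 0.247, 0.323 and 0.228 RPKM in the forebrain, and was at most 0.468 RPKM in all 9 other brain libraries of the series. Rps18 and Hmgn2, which also have processed copies, and Dynlt1a, one of a cluster of like genes, had log2 fold changes of 6.31, 3.65 and 3.07, and AA465934 and Vcp of 3.11 and 1.93. AA465934 and Vcp also had means of 41.7 and 17.0 RPKM in brain endothelial TRAP samples, above the forebrain means of 9.68 and 5.49 RPKM. The part of reads split among copies was not tested, and the sequencing run changed with the group, so the 2 cannot be told apart for these genes.

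The other large increases were close to the size of Neurod6, which was itself among the 15. Sla, an adaptor protein gene, had 61.3, 45.7 and 57.6 RPKM in the Emx1 lineage against 17.6, 15.9 and 18.5 RPKM (1.71, SE 0.09, adjusted p = 1.7e-09). Dct, a melanin synthesis enzyme that is also expressed in the embryonic telencephalon, had 11.4, 11.8 and 11.4 RPKM against 4.37, 4.33 and 4.42 RPKM (1.45). Hopx, a homeodomain-only protein of radial glia, had 24.9, 24.6 and 25.0 RPKM against 10.6, 8.98 and 11.3 RPKM (1.33), and Thy1 (1.43), Tma7 (1.37), the noncoding RNAs 2610035D17Rik (1.36) and A230056P14Rik (1.27) and Ndrg1 (1.22) completed the group. For these 9 genes, Neurod6 included, all 3 Emx1 values were above every value in the 9 other brain libraries. The 3 forebrain translatome libraries among those 9 had served to select the genes, so that part was fixed by the selection. Rpl29, Rps18, Hmgn2 and Dynlt1a were separated from the 9 libraries in the same way, so this does not set the groups of genes apart.

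The 15 largest decreases were mainly vascular and microglial genes. Igfbp7, a secreted protein of vessels, had 1.11, 0.764 and 0.842 RPKM in the Emx1 lineage against 62.0, 68.5 and 67.1 RPKM (−6.06, SE 0.10), with a mean of 916 RPKM in brain endothelial TRAP samples. AU021092 (−6.33), Grap (−5.06), Ctla2a (−4.78), Cnn2 (−4.75), Cd34, Cdh5 and Tie1 were likewise at 75.0 to 586 RPKM in the endothelial samples. Lyz2 (−5.53), Tyrobp, C1qa, C1qc, Ctss (−4.87) and Laptm5 (−4.71) were on the microglial list. Of these, Laptm5 was also high in the endothelial samples, at a mean of 56.1 RPKM against 8.02 RPKM in the forebrain, and the others had means of 2.96 to 7.93 RPKM there. Gm1943, a noncoding RNA, fell by 6.51, from 6.02 to 6.92 RPKM in the forebrain down to 0.0511 to 0.114 RPKM.

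Genes high in brain endothelium were frequent among the decreases more widely. Of the tested rows, 880 (4.63%) had at least 5 RPKM in brain endothelial TRAP samples and at least 4 times the level of total forebrain RNA. Among the lower rows the share was 27.0%, among those lower by over 4-fold it was 40.0%, and among the higher rows it was 1.2%. Conversely, 659 of the 880 (74.9%) fell in the Emx1 lineage, and their median level was 38.1% of the forebrain level over all 880. The total RNA came from the same tissue samples as the forebrain translatome, so these shares are a description and were not tested.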

How the data were processed

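RNA of 3 Emx1-lineage and 3 forebrain translatome samples had been sequenced by the authors from unstranded TruSeq libraries. Per the study's methods the authors aligned reads with RUM to GRCm38 (mm10) and computed RPKM with the rpkmforgenes script on UCSC refGene. The deposited read counts per RefSeq gene row were tested as they stood, and the deposited RPKM values served as levels. A table held 23827 rows, of which 392 repeated a symbol and accession. For a symbol in several rows, the row with most reads was used.

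The main test was the quasi-likelihood test of edgeR 4.0.16 (R 4.3.3; glmQLFit, glmQLFTest, TMM, no covariates, 3 against 3 samples) on the rows holding 1 or more counts over these 6 samples. Benjamini-Hochberg adjustment covered the 19006 rows, and an adjusted p below 0.001 was a call. Log2 fold changes are those of the fit and can differ slightly from ratios of RPKM means. SE is the standard error of the log2 fold change. The test was checked on simulated data. As alternatives, size factors by relative log expression, scaling by total counts, DESeq2 1.42.0, a minimum of 10 counts in 3 samples, a replicate block, 1 fit of 12 brain libraries, mRNA rows only, each replicate left out, an adjusted p below 0.05, and summed CPM in place of summed RPKM were run.

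Named genes were Emx1, Neurod6 and Tbr1, the members of 20 gene lists, and the 15 largest changes per direction among called genes of at least 5 RPKM without overlap of samples. Members and lists were chosen with earlier results of these data known. Gene families grouped by symbol were chosen after the values were seen. Coordinates are from RefSeq on GRCm38. Of the listed genes, Hbb-bt, Hbb-bs and Ahsp were not found by symbol. Depth limits the precision of genes with few reads, and counting error is contained in the fit. Samples of 1 group were separate tissue samples. Kidney samples were not used here, and brain transcriptome and endothelial samples entered as levels and in 1 alternative.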

Additional observations from a re-analysis of the deposited data

How the results depend on the processing

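Higher and lower gene rows numbered 1749 and 2442. With at least 10 counts in 3 samples 1164 rows were higher, and in 1 fit of 12 brain libraries 1141. The looser threshold of 0.05 gave 4278 higher and 4302 lower. Leaving out 1 library gave 1110 to 1444 higher and 2007 to 2198 lower. The causes were not tested. DESeq2, relative log expression factors, total counts and mRNA rows gave counts within 1.5 times. With the replicate block, 1116 rows were higher and 2016 lower. The replicate numbers do not pair embryos, and deviations of same-numbered samples correlated at 0.00137 to 0.0611.

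Of 327 list members tested, 46 rose and 188 fell, and the counts were 43 to 45 and 180 to 186 with 1 library left out. Over 4488 comparisons of a named gene with an alternative, no called direction reversed, 80 calls were lost and 17 gained. Lost most often were those of Wnt8b, Rspo3, Aqp1, Pomc, Tubb3 and Gap43. The fit of 12 brain libraries also lost those of Lhx9, Ebf3, Notch3, Pomc, Nhlh1, Crym, Otx2 and Dmrta1. On summed CPM, which weight long transcripts, the log2 ratio of Emx1 lineage to forebrain moved to 0.43 for cortical layer genes (from 0.28), −0.78 for GABAergic genes (from −1.34), −0.28 for striatal genes (from −0.38), 0.30 for Cajal-Retzius genes (from 0.06), −1.68 for mural genes (from −2.47), −4.16 for microglial genes (from −4.33) and 0.12 for the genes Rpl10a, Emx1 and Sox2 (from 0.28).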

Other observations

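Gene families grouped by symbol, chosen after the values were seen, extended the picture to the extracellular matrix and to guidance molecules. Over all rows tested, 9.2% were higher and 12.8% lower, and differences of a family from these shares were not tested. Of 43 collagen genes tested, 23 fell and 1 rose, with a median log2 fold change of −0.83 against 0.00 over all rows. The basement membrane chains Col4a1 and Col4a2 fell by 3.18 and 2.63, and the exception Col2a1, a collagen of cartilage and early neuroepithelium, averaged 12.0 RPKM in the Emx1 lineage against 8.46 RPKM and rose by 0.57. Laminins fell in 6 of 11 cases and integrins in 16 of 30, while the laminin chain Lama5 rose by 0.51. Guidance families were split. Of 22 ephrins and Eph receptors 8 rose and 6 fell, with Epha5 at 0.54 and Epha4 at 0.44, but Epha8 at −1.38 and Efnb3 at −0.67. Of 29 semaphorins and plexins 8 rose and 7 fell, with Sema4d at 0.62 and Plxna4 at 0.61, but Sema4a at −0.89. Of 19 GABA-A receptor genes 2 (10.5%) fell by edgeR, near the share of all rows, and 4 fell by DESeq2. By either tool 0 rose, with 2 higher and 9 lower at an unadjusted p below 0.05 in edgeR. Among 19 ionotropic glutamate receptor genes 2 rose, Gria3 (0.68) and Gria2 (0.46), and 5 fell, among them Grin2d (−1.16) and Gria4 (−0.92).

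Among 93 potassium channel genes, 15 (16.1%) rose and 17 (18.3%) fell, beside 9.2% and 12.8% of all rows. Kcna1 (1.13), Kcng1 (1.06), Kcnj11 (0.94) and Kcnq3 (0.84) rose, whereas Kcnj8, a channel of pericytes, fell by 3.70. Forkhead genes fell in 16 of 40 cases, among them Foxf2 (−3.76), Foxc1 (−1.86) and Foxp1 (−0.83), and Foxo6 (0.86) was among the 4 that rose. Of 10 frizzled receptors, Fzd9 (0.78), Fzd8 (0.55), Fzd1 (0.53), Fzd2 (0.51) and Fzd7 (0.32) rose while Fzd6 (−2.45), Fzd10 (−1.64) and Fzd4 (−1.43) fell. Among Wnt ligands, Wnt7b averaged 139 RPKM in the Emx1 lineage against 81.0 RPKM and rose by 0.84, and Wnt3 fell by 2.13. Of 6 Iroquois genes 5 fell, by 1.46 to 2.16. Among 13 Hox genes edgeR and DESeq2 called 0 at an adjusted p below 0.001, and 1 was lower at an unadjusted p below 0.05. Of 70 protocadherin genes 4 (5.71%) fell by edgeR, a share below the 12.8% of all rows, and 7 fell by DESeq2. By either tool 0 rose, with 10 higher and 21 lower at an unadjusted p below 0.05 in edgeR. Of 80 cytosolic ribosomal protein genes 4 (5.0%) rose, including Rpl29 and Rps18, a share below the 9.2% of all rows. By edgeR or DESeq2 0 fell, with 27 higher and 9 lower at an unadjusted p below 0.05 in edgeR.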
